A study of Mus musculus with 1203 samples.

Results

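The Rab GTPases examined here are the 59 mouse genes whose symbol is Rab followed by 1 or 2 digits and at most a short letter suffix, out of 46517 genes in the deposited table. All 59 are protein coding in GENCODE M21 (GRCm38, the assembly also called mm10). Pseudogenes, antisense genes and the Rab-like genes were outside the rule. Measurements came from single colon cells of female mice, 11 weeks old, either wild type or labelled VillinCre;IPMKf/f, in which Cre expressed from the Villin promoter of the intestinal epithelium acts on floxed alleles of Ipmk, the gene for inositol polyphosphate multikinase. Cells were sorted into plates and profiled by Smart-seq2, a full-length cDNA method. The wells carry a label of tuft cell (EPCAM and SIGLEC-F positive sort) or epithelial cell.

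Rab proteins are small GTPases that give membranes of the cell their identity. Guanine nucleotide exchange factors (GEFs) load a Rab with GTP on a membrane, effectors bind the GTP form and move, tether or fuse the vesicle, and GTPase activating proteins (GAPs) end the cycle, after which a GDP dissociation inhibitor carries the Rab through the cytosol. Tuft cells are rare chemosensory epithelial cells that release cytokines, lipids and acetylcholine, goblet cells store and secrete mucin, and mature colonocytes are absorptive cells with apical recycling and transcytotic traffic.

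Of 1165 columns used, 856 had at least 1000 genes above 0 and were kept. Marker-positive tuft cells were those with Trpm5 at 50 TPM or more and Dclk1 at 100 TPM or more (TPM, a length-normalised transcript level scaled to 1000000 per cell). These made up 56.8% of the kept cells, and the remaining 370 are called other cells. The label was a loose guide to this class, as 39.03% of kept cells of the tuft label fell below the cut and 19 of 90 of the epithelial label were above it. The 12 tuft marker genes summed to between 1632 and 2718 TPM by plate set in marker-positive tuft cells, and to between 49.5 and 279.4 TPM in other cells, in which all 12 were detected. The other cells carried mature colonocyte markers (8 genes, 1335 to 5098 TPM) and goblet markers (8 genes, 77.7 to 5803 TPM). The sum of 5 macrophage or dendritic genes reached 1867 TPM in other cells and at most 1.95 TPM in marker-positive tuft cells, and 14 other cells held Cd74, Lyz2 or H2-Ab1 at 100 TPM or more, 10 of them in plate set 6. The median number of genes detected by plate set was 2147 to 2882 in marker-positive tuft and 2011 to 3278 in other cells. Plate sets 1, 3 and 6 were labelled wild type and plate sets 2, 4, 5 and 7 VillinCre;IPMKf/f, so plate set and genotype cannot be told apart. Animals are not named in the labels, so a genotype counts as 1 sample and no p-value is given. Each SD is between plate sets and may be technical. TPM keeps no read depth, so the depth per cell is unknown, and the intervals given for shares of cells are exact 95% binomial intervals that cover counting error only.

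As an example of the regulatory sequence of these genes, the 250 bases before the start are given for the member with the largest difference in each direction between tuft and other cells (RefSeq, GRCm38.p6, gene strand, CG pairs in capitals). The Rab27a sequence lies at chr9:73044560-73044809 on the plus strand and the Rab17 sequence at chr1:90967668-90967917 on the minus strand. The first of the 2 Rab27a windows is shown, and the Rab17 window lies inside the GENCODE gene, which starts further upstream.
Rab27a: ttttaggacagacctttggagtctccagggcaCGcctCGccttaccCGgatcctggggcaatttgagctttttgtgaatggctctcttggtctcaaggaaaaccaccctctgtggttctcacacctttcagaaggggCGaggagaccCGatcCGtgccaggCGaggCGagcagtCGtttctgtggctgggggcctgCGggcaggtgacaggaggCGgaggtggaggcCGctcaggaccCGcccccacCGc
Rab17: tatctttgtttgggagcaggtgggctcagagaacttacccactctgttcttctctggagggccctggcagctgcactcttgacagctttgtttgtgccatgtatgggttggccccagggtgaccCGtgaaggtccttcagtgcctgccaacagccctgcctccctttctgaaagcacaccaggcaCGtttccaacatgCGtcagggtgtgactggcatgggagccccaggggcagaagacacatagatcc
The Rab27a stretch holds 14 CG pairs at 62% GC, and the Rab17 stretch 3 at 56.8% GC, against medians of 15 pairs and 60% over 59 windows of Rab genes and of 6 pairs and 52.4% over all 32851 windows. The octamer ATGCAAAT, bound by POU factors, was on neither strand in any of the 59 windows of 300 bases, which belong to 47 of the 59 Rab genes. It was in 1.74% of all windows. Nothing about such a factor follows from the absence of these letters in this window.

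The family was present at a like summed level in both classes. Summed over the 59 genes, the level was 353.9 ± 77.9 TPM in marker-positive tuft cells and 344.3 ± 59.9 TPM in other cells (SD over 7 plate sets). The median number of Rab genes above 0 per cell was 11.3 ± 2.1 in marker-positive tuft and 12.6 ± 2.5 in other cells. In marker-positive tuft cells 10 members averaged 10 TPM or more, 23 lay between 1 and 10 TPM and 26 were below 1 TPM. In other cells the counts were 8, 26 and 25. The members that stayed below 1 TPM in both classes numbered 22, namely Rab2b, Rab3b, Rab3c, Rab6b, Rab7b, Rab8b, Rab9b, Rab12, Rab22a, Rab26, Rab30, Rab31, Rab33a, Rab34, Rab36, Rab37, Rab38, Rab39, Rab39b, Rab40b, Rab42 and Rab44. Of these, Rab3c and Rab9b were listed at 0 in every kept cell.

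**Figure D1:**
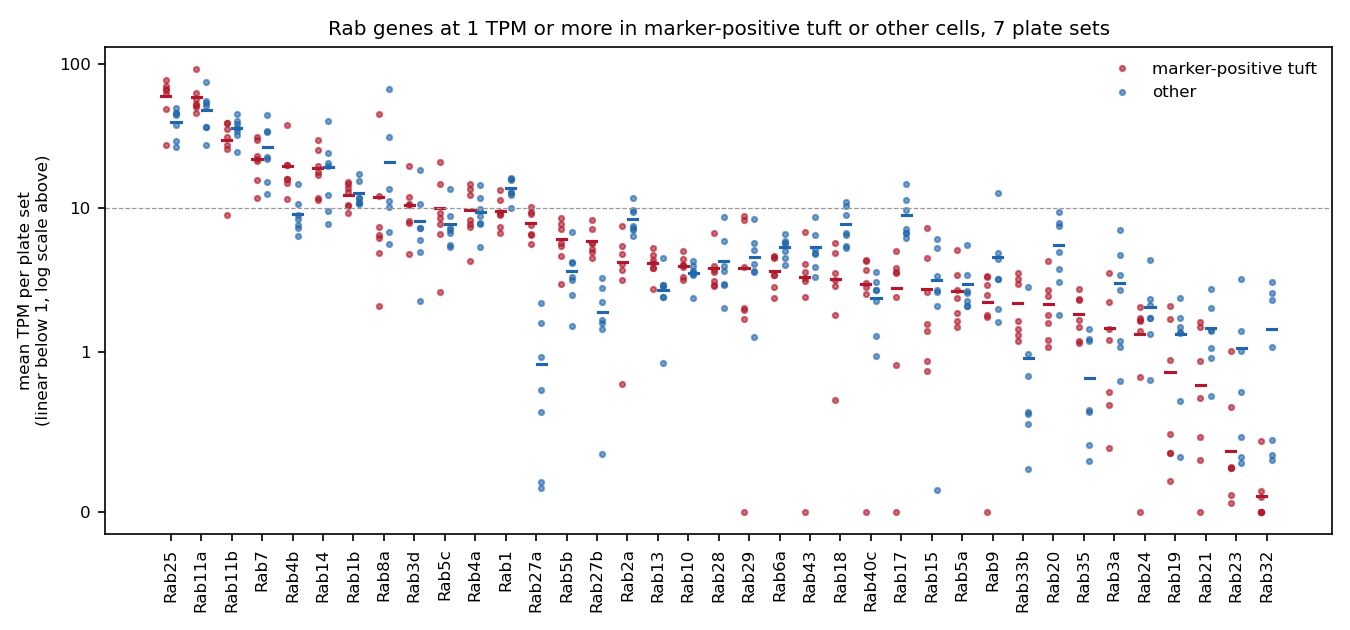
Mean TPM of each Rab gene that reached 1 TPM in a class (37 genes, ordered by level in marker-positive tuft cells), with 1 point per plate set, a bar at the mean of 7 plate sets and a dashed line at 10 TPM; the axis is linear below 1 and logarithmic above. Rab25, Rab11a and Rab11b stand highest in both classes, and the classes separate completely at Rab27a, Rab27b and Rab17.

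Recycling endosome Rabs held the largest part of the family's level in both classes, 44.3% in marker-positive tuft and 39.8% in other cells. Rab25, an epithelial Rab of the apical recycling endosome, was the highest member in marker-positive tuft cells at 60.3 ± 17 TPM, against 39.9 ± 8.8 TPM in other cells. Rab11a, which carries cargo from the recycling endosome to the apical surface, stood at 59.4 ± 15.7 TPM in tuft and 48.1 ± 15.9 TPM in other cells. Their close relative Rab11b stood at 29.7 ± 10.6 and 35.99 ± 6.58 TPM. Levels of all 3 overlapped between the classes. Next came Rab7, the Rab of late endosomes and lysosomes, at 22.1 ± 7.0 TPM in tuft and 26.5 ± 11.5 TPM in other cells. The fifth member was Rab4b in marker-positive tuft cells (19.5 TPM) and Rab8a in other cells (20.9 TPM). The top 5 members made up 53.96% of the family's level in marker-positive tuft cells and 49.8% in other cells. In tuft cells Rab25 and Rab11a differed by less than their SD, while Rab11a and Rab11b differed by more than either SD.

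The question of which Rabs differ between tuft cells and their neighbours was put within each plate set, as log2(mean TPM + 1) in marker-positive tuft minus other cells, averaged over the 7 plate sets. The rule of size asked for 10 TPM in either class, an average difference of at least 2-fold and 1 sign across all plate sets. None of the 11 Rab genes at this floor met it, where 31.2% of the 2693 genes tested did. The 11 members had a median difference of 0.09 against -0.21 for all genes tested, with 6 higher and 5 lower in tuft cells. Without the floor, 5 of 57 members met the rule (8.77%) against 7.98% of all genes detected. On TPM rescaled after removal of mitochondrial and the 20 most abundant other genes, 7 of 37 members met it (18.9%) against 22.3% of genes. The shares of members were thus near or below the background. The members described next mostly lie below 10 TPM and were chosen after their values were seen. Differences of genes at this level are understated by the added 1 TPM.

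Rab27a and Rab27b, a pair of secretory Rabs that dock lysosome-related organelles and dense granules at the plasma membrane, were the members that rose most in tuft cells under the rule without the floor. Rab27a (chr9:73044854-73097629, plus strand) averaged 9.42, 5.64, 10.1, 6.52, 9.11, 6.66 and 7.63 TPM in the marker-positive tuft cells of plate sets 1 to 7. In the other cells of the same plate sets it averaged 0.182, 0.760, 1.59, 0.970, 2.18, 0.626 and 0.150 TPM. Every tuft value was above every other value, and the mean log2 difference was 2.27 ± 0.55. Rab27a was above 0 in 52.7% of marker-positive tuft cells (interval 48.1% to 57.2%) and in 10.8% of other cells (40 of 370, 7.84% to 14.4%). Rab27b lay at 7.16, 5.18, 5.76, 4.99, 5.71, 4.48 and 8.30 TPM in tuft cells and at 3.29, 2.77, 1.66, 2.23, 1.60, 1.44 and 0.361 TPM in other cells. These values did not overlap either, with a mean log2 difference of 1.31 ± 0.69. Rab27b was above 0 in 49.2% of marker-positive tuft cells and 20.3% of other cells.

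Within single cells, both genes were above 0 in 31.1% of marker-positive tuft cells, Rab27a alone in 21.6% and Rab27b alone in 18.1%, and 29.2% had neither. In other cells 16 of 370 had both (4.32%) and 73.2% had neither. By well label, Rab27a was above 0 in 52.9% of marker-positive tuft cells of the tuft label and in 47.4% of the 19 marker-positive tuft cells of the epithelial label. Among other cells the shares were 11.7% in the tuft label and 7.04% in the epithelial label. For Rab27a the marker class and not the label thus carried the larger difference.

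Of the remaining members, 3 had positive differences in all 7 plate sets. Rab4b, an early endosome Rab of fast recycling, lay at 15.96, 11.6, 19.97, 38.1, 20.01, 16 and 14.9 TPM in tuft cells and at 10.8, 8.92, 7.65, 14.6, 6.43, 8.41 and 7.33 TPM in other cells. Its mean log2 difference of 0.97 ± 0.43 was just short of 2-fold, and the plate-set values overlapped. A single cell held 14.1% of its TPM in all marker-positive tuft cells. Rab4b was above 0 in 35.4% of marker-positive tuft cells and 28.4% of other cells. Of the distinct words of 31 bases in Rab4b transcripts, 62.6% also occur in another gene, chiefly Gm21983, a gene model listed at 0.775 TPM in tuft cells, so the split of its reads is uncertain. A further 6 members share over 10% of these words with another gene, namely Rab43 (74.8%), Rab7 (16.3%), Rab9 (12%), Rab5b (11.8%), Rab11b (10.9%) and Rab2a (10.7%). The genes that share most with Rab43 and Rab7, Gm45140 and Rab7-ps1, are not in the deposited table under these names. A split of reads with them therefore cannot be read. Those of Rab9, Rab5b and Rab2a were not looked up. Rab33b, a Golgi Rab with a role in autophagy, averaged 2.18 TPM in tuft and 0.959 TPM in other cells (difference 0.73 ± 0.41). Rab5b, an early endosome Rab, averaged 6.07 and 3.68 TPM (0.62 ± 0.34).

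Of the 37 members that reached 1 TPM in a class, 7 had negative differences in all 7 plate sets, namely Rab17, Rab18, Rab32, Rab2a, Rab9, Rab1 and Rab6a. Together with the 5 positive ones, 12 of these 37 members kept 1 sign (32.4%), against 26.6% of the 10383 genes at that level. Rab31, below 1 TPM in both classes, was also negative in all 7 (-0.51 ± 0.40). Without cells holding macrophage or dendritic genes the difference of Rab31 was -0.34 ± 0.26, and it was positive in 1 plate set. Rab17, an epithelial Rab of apical recycling and transcytosis (chr1:90958133-90969661, minus strand), lay at 3.85, 2.41, 3.54, 5.06, 0.916, 3.57 and 0 TPM in tuft cells of plate sets 1 to 7. In other cells it lay at 11.4, 14.8, 6.70, 7.16, 6.73, 6.17 and 9.66 TPM. The classes did not overlap, and the mean log2 difference was -1.55 ± 1.07. Rab18, a Rab of the endoplasmic reticulum and lipid droplets, averaged 3.24 ± 1.71 TPM in tuft cells and 7.78 ± 2.35 TPM in other cells. Its log2 difference was -1.13 ± 0.83, with overlap between the lowest other and the highest tuft plate set. Rab32, which works in lysosome-related organelles and mitochondria, was above 0 in 5 marker-positive tuft cells (1.03%) and in 44 of 370 other cells (11.9%), at 0.0948 and 1.45 TPM. The difference of Rab32 was -1.03 with all cells and -0.91 without cells holding macrophage or dendritic genes, so at that setting it fell short of 2-fold.

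Rab2a, which acts between the endoplasmic reticulum and the Golgi, averaged 4.22 TPM in tuft and 8.44 TPM in other cells (-0.96 ± 0.83). Rab1 averaged 9.51 and 13.7 TPM (-0.50 ± 0.26) and Rab6a, a Golgi Rab, 3.68 and 5.38 TPM (-0.46 ± 0.22). Of the 14 members listed for endoplasmic reticulum and Golgi, 8 reached 1 TPM in a class. Of these 8, 4 were lower in tuft cells in every plate set (Rab18, Rab2a, Rab1 and Rab6a), 1 was higher (Rab33b) and 3 had mixed signs, where 15.8% of all genes at that level were lower in every plate set. Rab1b, the paralog of Rab1, stood at 12.4 TPM in tuft and 12.7 TPM in other cells with a difference of -0.03 ± 0.27. Rab9, which serves traffic from late endosomes to the Golgi, averaged 2.24 and 4.59 TPM (-0.71 ± 0.64).

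**Figure D2:**
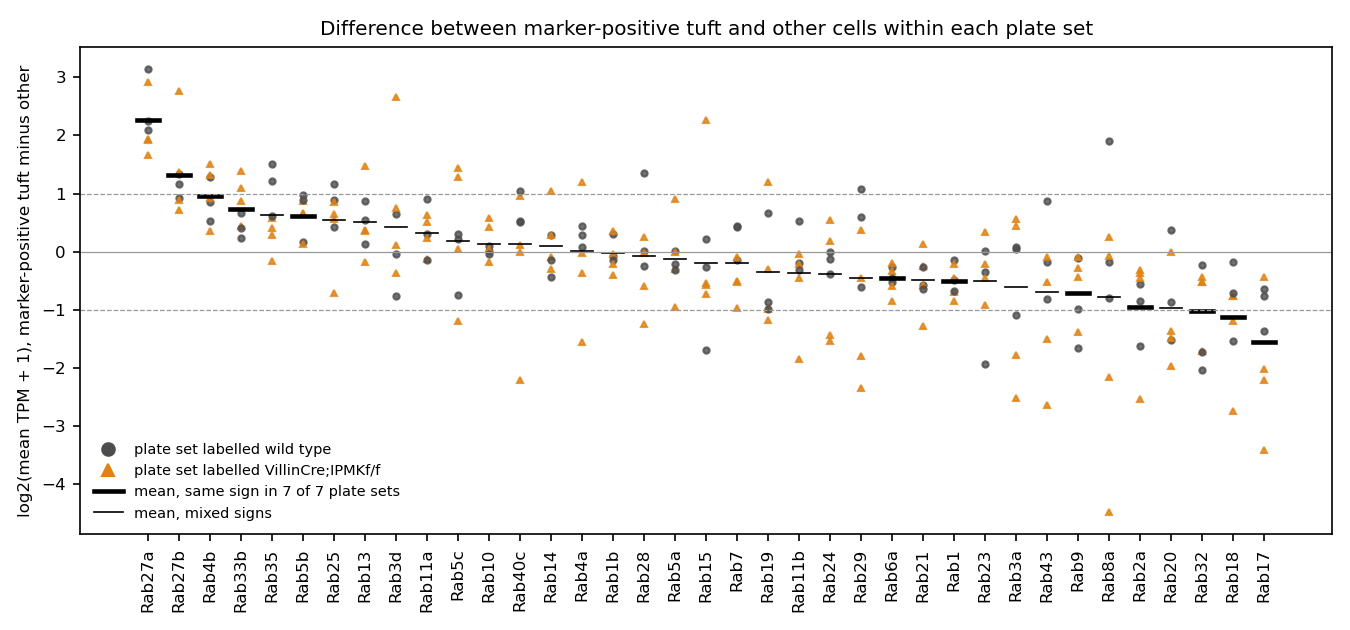
Log2(mean TPM + 1) in marker-positive tuft minus other cells for the 37 Rab genes at 1 TPM or more, 1 point per plate set (circles, labelled wild type; triangles, labelled VillinCre;IPMKf/f); bars are means, thick where all 7 plate sets have the same sign, and dashed lines mark 2-fold. Rab27a, at a mean of 2.27, and Rab17, at -1.55, lie at the ends, and most genes scatter around 0.

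Close paralogs were set side by side in 7 pairs, chosen after their values were seen. The tuft minus other difference of Rab25 exceeded that of Rab11b by 0.91 ± 0.27 in log2, and by 0.61 or more in each of 7 plate sets. Rab11a exceeded Rab11b by 0.69 ± 0.76, again in 7 of 7. The words Rab11b shares are mostly those of the pseudogene Rab11b-ps2, which was listed at 5.85 TPM in tuft and 11.6 TPM in other cells. Rab27a exceeded Rab27b by 0.96 ± 0.68 in 7 of 7. Rab4b exceeded Rab4a by 0.96 ± 1.09, in 6 of 7, and Rab5b exceeded Rab5a by 0.75 ± 0.60, in 6 of 7. The contrast of Rab5b with Rab5c was 0.43 ± 1.00, which is within its spread. The means for Rab4b with Rab4a and for Rab11a with Rab11b were also smaller than their SD. The contrast of Rab1 with Rab1b was -0.47 ± 0.40 and was negative in each plate set. It was only marginally so in plate set 7, where both differences were -0.21.

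Some abundant members were carried by few cells. Rab8a, a Rab of exocytosis and the apical membrane, averaged 12.03 ± 14.8 TPM in tuft cells, with 44.95 TPM in plate set 1, and a single cell held 39.2% of its TPM in all marker-positive tuft cells. In other cells it averaged 20.9 ± 22.3 TPM with 67.6 TPM in plate set 7, and the highest cell held 23.5%. No difference between classes can be read for Rab8a at this spread (-0.79 ± 2.03). By contrast, the highest cell held 3.50% of the TPM of Rab27a in tuft cells and 2.77% of that of Rab25.

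The other cells were then cut into ranges by single genes, as a description only. There were 35 cells with Muc2, the goblet mucin, at 100 TPM or more, 69 further cells with Krt20, a keratin of mature colonocytes, at 100 TPM or more, 9 with Mki67 at 10 TPM or more, which are too few for plate-set values, and the rest (69.5% of other cells). Within 2-fold of the cut lay 3 cells for Muc2 and 57 for Krt20. Median genes detected were 3363, 3116 and 2290 in the Muc2, Krt20 and remaining cells. Only 3 plate sets held 5 or more Muc2 cells. The genes named for these ranges were chosen after their values were seen. Of the 12 members listed for secretory vesicles and exocytosis, some were high in the Muc2 range. Others had lower means in Muc2 than in Krt20 cells. These were Rab8a (10.6 against 44.3 TPM), Rab10 (2.84 against 5.02 TPM), Rab13 (1.84 against 2.49 TPM) and Rab3a (1.23 against 2.39 TPM). No share over all genes is given for the Muc2 range. Rab3d, a Rab of regulated secretory granules, averaged 28.9 ± 6.3 TPM in Muc2 cells, 10.52 ± 4.65 TPM in marker-positive tuft cells and 1.51 ± 2.44 TPM in Krt20 cells. It was above 0 in 27 of 35 Muc2 cells (77.1%, interval 59.9% to 89.6%) and in 10 of 69 Krt20 cells (14.5%, 7.18% to 25.04%). In the remaining cells Rab3d averaged 8.33 ± 8.68 TPM and was above 0 in 43.2%. Rab15, which is placed on early and recycling endosomes, followed the same order between these ranges, with 15.0 ± 5.4 TPM in Muc2 cells and 0.285 ± 0.678 TPM in Krt20 cells.

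Rab27a and Rab27b were not particular to tuft cells. Rab27a was above 0 in 14 of 35 Muc2 cells (40.0%, interval 23.9% to 57.9%), in 4 of 69 Krt20 cells (5.80%) and in 8.17% of the remaining cells. Its level in Muc2 cells was 6.60 ± 7.89 TPM over 3 plate sets, between 1.62 and 15.7 TPM, which spans the tuft range. Rab27b was above 0 in 19 of 35 Muc2 cells (54.3%) at 5.85 ± 3.38 TPM, and in 15.9% of Krt20 cells at 1.44 ± 2.27 TPM. The Krt20 share, given with its lower interval bound of 8.24% and upper bound of 26.7%, shows the level of signal in a cell range in which these granule Rabs were low.

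Among the members lower in tuft cells, Rab17, Rab18, Rab2a, Rab9, Rab32 and Rab6a had their highest mean in Krt20 cells. For Rab6a the Krt20 and Muc2 means were nearly level (7.88 and 7.86 TPM). Rab1 had its highest mean in Muc2 cells (19.05 TPM, against 14.44 TPM in Krt20 cells). Rab17 averaged 19.2 ± 9.6 TPM in Krt20 cells, 6.99 ± 2.02 TPM in the remaining cells, 2.76 ± 1.77 TPM in tuft cells and 0.274 ± 0.475 TPM in Muc2 cells. Of 34 members at 1 TPM or more in other cells, 6 were higher in Krt20 than in remaining cells in all 7 plate sets (17.6%) and 0 were lower in all 7. Over the 9184 genes at that level, 9.65% were higher and 7.46% lower in all 7, and the median log2 difference was -0.09 against 0.53 for the 34 members. These 6 were Rab17 (log2 difference 1.25 ± 0.51), Rab2a (1.22 ± 0.88), Rab5c (1.21 ± 0.55), Rab20 (1.00 ± 0.43), Rab4a (0.96 ± 0.52) and Rab18 (0.94 ± 0.60). Krt20 cells also detected more genes than the remaining cells, and the part of this in the 6 differences was not tested.

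**Figure D3:**
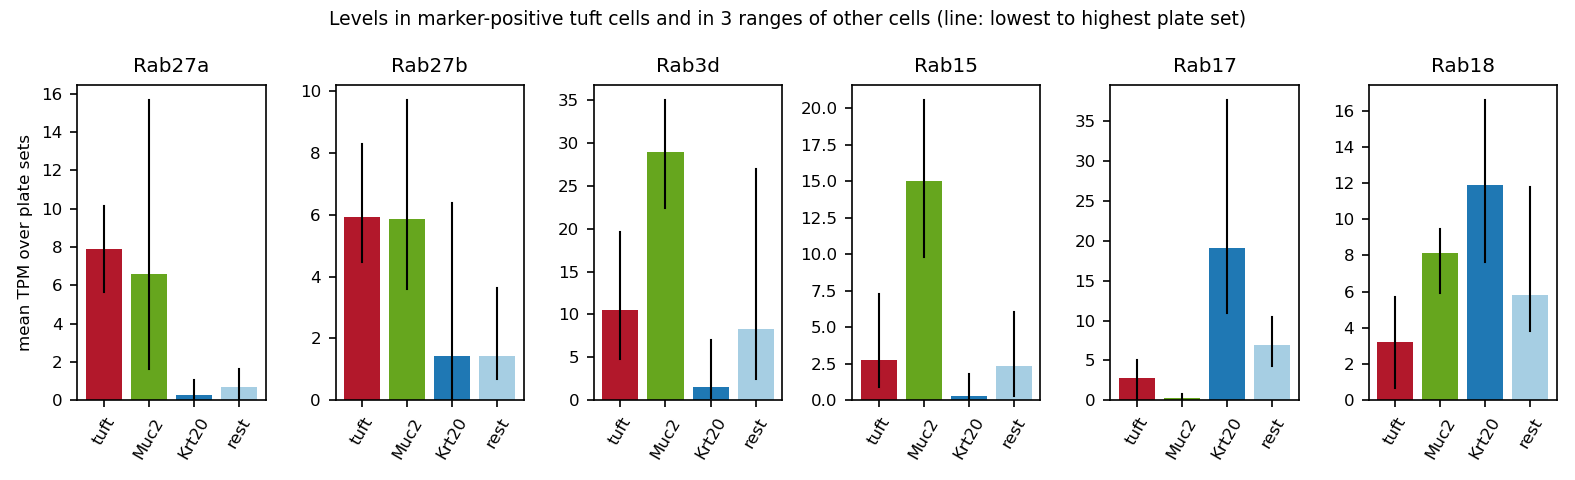
Mean TPM of 6 Rab genes, averaged over plate sets with at least 5 cells, in marker-positive tuft cells (7 plate sets), in other cells with Muc2 at 100 TPM or more (3), with Krt20 at 100 TPM or more (7) and in the rest without Mki67 (7); lines run from the lowest to the highest plate set. Rab27a and Rab27b are high in the tuft and Muc2 ranges, Rab3d and Rab15 are highest in the Muc2 range, and Rab17 is highest in the Krt20 range at 19.2 TPM.

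Regulators and effectors of the Rabs did meet the rule of size between tuft and other cells. Of the listed GEFs, GAPs, carriers and effectors, all but 2 are in the table and 12 reached 10 TPM in a class. Of these 12, 4 rose and 2 fell in tuft cells by the rule, beside the 31.2% of all genes tested that did either. Rabgap1l, a GAP-domain protein of endosomes, rose from 11.2 ± 4.4 TPM in other cells to 56.1 ± 11.3 TPM in tuft cells (2.29 ± 0.57) and was above 0 in 95.5% of tuft cells. Among effectors, Rilpl2, which binds phosphorylated Rabs, rose from 3.31 to 13.2 TPM (1.93 ± 1.01), Rab11fip4, an effector of Rab11, from 2.88 to 12 TPM (1.57 ± 0.75), and Appl2, an effector of early endosomal Rabs, from 28.4 to 61.4 TPM (1.03 ± 0.40). Among carriers, Gdi2, a GDP dissociation inhibitor, fell from 17.9 to 7.36 TPM (-1.17 ± 0.41). Rabggtb, the catalytic chain of the enzyme that attaches lipid to Rabs, fell from 10.0 to 3.81 TPM (-1.14 ± 0.57). Its level in other cells was just at the floor, with 26.77 TPM in plate set 3 and 2.88 to 11.54 TPM in the remaining plate sets. A single cell held 15.25% of its TPM in other cells. Below the floor, and chosen after their values were seen, effectors of Rab27 went in opposite directions. Mlph (melanophilin) stood at 8.58 ± 1.64 TPM in tuft and 3.72 ± 1.32 TPM in other cells, Unc13d at 4.90 and 1.3 TPM, and the synaptotagmin-like Sytl1 at 0.57 ± 0.43 and 6.38 ± 4.36 TPM, each with 1 sign in 7 of 7 plate sets.

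The labels were compared on the first plate of each set, which held both. None of the 14 Rab genes at the floor met the rule of size in tuft minus epithelial label, where 3.05% of 2954 genes did. Rab27a was at 5.09 TPM in the tuft label and 1.43 TPM in the epithelial label (log2 difference 1.51 ± 1.10, positive on 6 of 7 plates). Rab18 was at 3.96 and 12.2 TPM (-1.26 ± 1.13, negative on 6 of 7). Rab27b differed by 0.36 ± 1.17, Rab4b by 1.02 ± 1.73 and Rab17 by -1.09 ± 1.75, each within its spread. For Rab5b (-0.42 ± 0.73, positive on 1 of 7 plates) and Rab33b (-0.29 ± 0.94, positive on 3 of 7) the mean had the opposite sign to that between marker-positive tuft and other cells. The median over all genes tested was -0.48. Over 18 alternatives the difference ran from -0.65 to 0.30 for Rab5b and from -0.48 to 0.44 for Rab33b. Of kept cells of the epithelial label, 18 of 39 in wild type were marker-positive tuft, against 1 of 51 under the VillinCre;IPMKf/f label. In wild type the labels thus partly set tuft cells against tuft cells.

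The study's genotype question was read over plate sets, 3 labelled wild type and 4 labelled VillinCre;IPMKf/f. Ipmk itself was not lower in the plate sets labelled VillinCre;IPMKf/f. In marker-positive tuft cells Ipmk averaged 2.19, 1.61 and 1.68 TPM in the wild type sets. The averages were 4.84, 12.5, 2.17 and 1.3 TPM where the label is VillinCre;IPMKf/f. In other cells it averaged 5.83, 7.71 and 5.50 TPM against 22.2, 25.1, 17.03 and 9.35 TPM. A gene-level value does not separate the floxed exons from the others, so it does not check the deletion, and the directions below rest on the labels.

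No Rab gene met the rule of size for genotype, which asks for 10 TPM in a group, a 1.5-fold difference and plate-set values that do not overlap. In marker-positive tuft cells it was 0 of 11, against 4.33% of 2310 genes, and in other cells 0 of 9, against 5.14% of 2491 genes. In tuft cells the 11 members had a median log2 difference of -0.37, with 8 lower and 3 higher in plate sets labelled VillinCre;IPMKf/f, against a median of -0.20 for all genes tested. Rab14, an endosome and Golgi Rab, came close in both classes. In tuft cells the wild type values of Rab14 were 29.8, 25.5 and 17.7 TPM, against 19.7, 11.7, 11.4 and 17.1 TPM under the VillinCre;IPMKf/f label (-0.67 ± 0.37). In other cells it lay at 40.3, 20.6 and 19.8 TPM against 24.4, 9.48, 12.3 and 7.76 TPM (-1.0 ± 0.63). In tuft cells the overlap was between plate set 2 and wild type plate set 6, and Rab14 met the rule when either was left out. Of all genes tested in tuft cells, 7.87% met it without plate set 2 and 16.5% without plate set 6. In other cells plate set 2 lay above wild type plate sets 3 and 6. Without plate set 2 Rab14 met the rule there, as did 9.98% of all genes tested. Over the alternatives its difference ran from -0.93 to -0.45 in tuft cells and from -1.31 to -0.19 in other cells. A single cell held 15.8% of its TPM in wild type other cells. Rab7 in tuft cells lay at 31.3, 29.8 and 21.3 TPM against 15.7, 22.1, 23.1 and 11.7 TPM (-0.60 ± 0.38), and plate set 6 made the overlap. The summed family level in tuft cells was 394.5 ± 88 TPM in 3 and 323.4 ± 63.8 TPM in 4 plate sets, with median genes detected of 2744 ± 119.8 and 2415 ± 308.9. The lower detection moved with the lower Rab levels and its part was not tested.

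Without the floor, 1 of 53 members met the genotype rule in tuft cells, against 2.39% of genes, and 2 of 54 in other cells, against 2.61%. In tuft cells this was Rab40c, a ubiquitin ligase adaptor, which fell from 4.11 to 2.09 TPM with a value of 0 TPM in plate set 7, where there were 9 tuft cells. In other cells Rab15 fell from 4.92 to 1.89 TPM and Rab31, an early endosome Rab, rose from 0.321 to 1.10 TPM. Rab27a and Rab27b did not separate by genotype in either class. Of the machinery, Chm, a Rab escort protein that presents new Rabs for lipid attachment, met the rule in tuft cells. The wild type values of Chm were 20.99, 15.6 and 5.43 TPM, against 0.195, 0.617, 0.892 and 0.424 TPM under the VillinCre;IPMKf/f label (-3.14). It was above 0 in 10.7% of tuft cells, and a single cell held 24.03% of its TPM. In other cells Chm was at 25.99 TPM in plate set 4, labelled VillinCre;IPMKf/f, with 79.03% of its TPM over other cells in 1 cell.

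**Figure D4:**
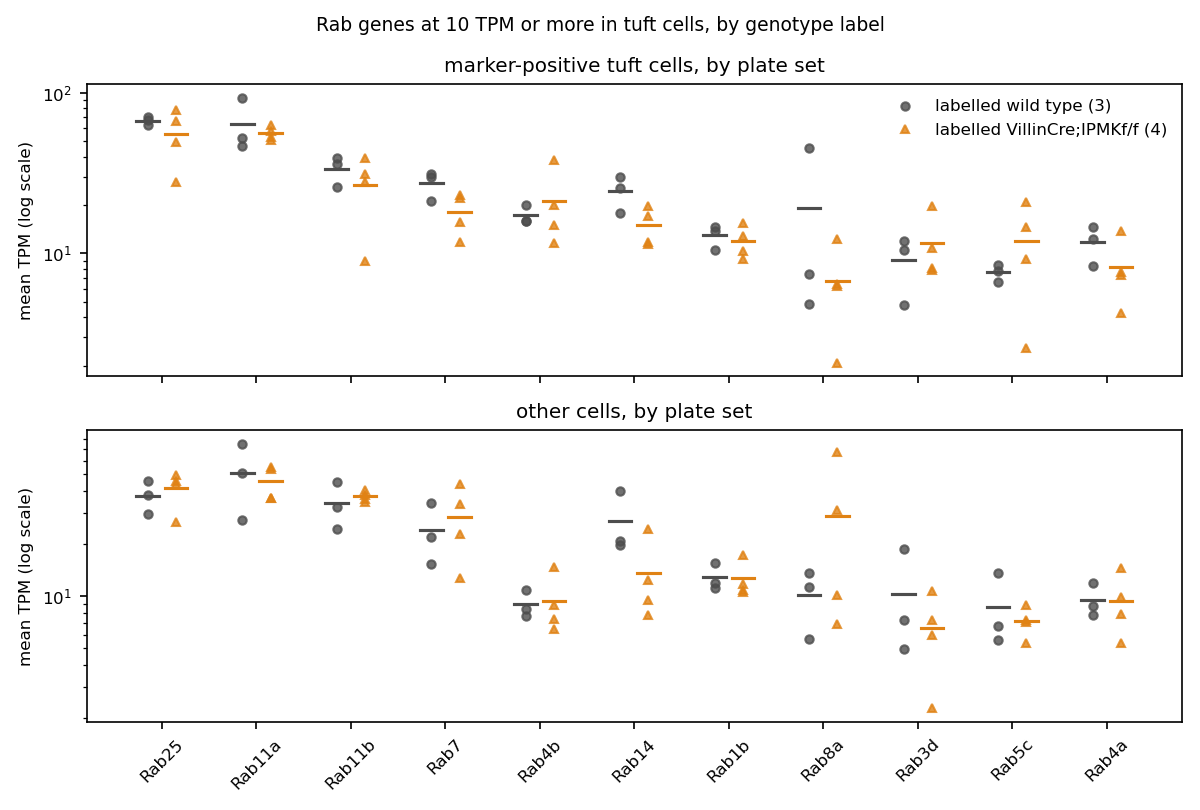
Mean TPM on a log scale of the 11 Rab genes at 10 TPM or more in tuft cells of a genotype, by plate set, in marker-positive tuft cells (top) and other cells (bottom); circles are the 3 plate sets labelled wild type, triangles the 4 labelled VillinCre;IPMKf/f and bars the group means. The groups overlap at each of the 11 genes in both classes. In tuft cells Rab14, Rab7, Rab4a and Rab5c each met the rule of size when 1 plate set was left out. Of all genes tested, 7.87% met it without plate set 2, 16.5% without set 6 and 6.51% without set 7, against 4.33% with all sets. A single cell held 29.9% of the TPM of Rab5c in tuft cells labelled VillinCre;IPMKf/f, and its difference ran from -0.48 to 1.18 over the alternatives.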

How the data were processed

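Single colon cells had been profiled by Smart-seq2, and the authors deposited TPM per gene and well. Per the submitters' processing notes, Bowtie2 2.4.2, RSEM 1.3.3 and mm10 were used; settings and the annotation release were not given in the sources used here. RSEM divides reads among similar transcripts by a model. Column totals of kept cells ran from 999999 to 1000001 TPM. On average 76.4% of TPM was Rn18s-rs5 (18S), by plate set 76.5% to 80.3% in marker-positive tuft and 65.7% to 80.0% in other cells, so 10 TPM is a strict floor. The deposited table has 1203 columns, of which 38 from 1 plate were not used because their whole-number values could not be checked as TPM. No doublet caller was run.

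Columns were matched to samples by title. For each plate set and class, the mean TPM of its cells was taken (at least 5 cells, or 3 per label on the first plates), and log2(mean TPM + 1) was compared with numpy and pandas, plate sets weighted equally. Group labels came from the samples; Rab genes, role lists, regulators and markers were chosen with earlier results of these data known. Named by rule were members past the rule of size, the 5 highest per class, examples at 10 TPM or more, members below 1 TPM, regulators past the rule, and Trpm5, Dclk1 and Ipmk; other names were chosen after their values were seen. Alternatives varied the pseudocount, floor, averaging, gene minimum, scaling, highest cell, tuft cut, the definition of other cells and left out each plate set. A floor of 1 TPM, alone and with rescaling, and removal of cells holding macrophage or dendritic genes were chosen after seeing the data. Protein sequences were not used here.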

Additional observations from a re-analysis of the deposited data

Results flagged for a closer look

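Among 60 groups of 4 or 7 plate-set values searched, 4 held a value far from the others, and chance alone flags about 1 in 20 groups. All 4 concern plate set 7, which had 9 marker-positive tuft cells. The tuft minus other difference in log2 was 2.77 for Rab27b, -0.71 for Rab25 and -1.84 for Rab11b in that plate set, each apart from the other 6 plate sets. Rab40c was at 0 TPM in its marker-positive tuft cells, apart from the other 3 plate sets labelled VillinCre;IPMKf/f. No Rab gene at 1 TPM or more had all wild type plate sets on one side of 0 and all of those labelled VillinCre;IPMKf/f on the other in tuft minus other cells.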

How the results depend on the processing

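The count of Rab genes past the rule of size was 0 in all 4 comparisons. In tuft minus other cells it became 1 of 11 with a pseudocount of 0.1 TPM (Rab4b), against 32.4% of all genes tested. With no floor it was 5 of 57 (Rab27a and Rab27b higher, Rab17, Rab18 and Rab32 lower), against 7.98%. With at least 2000 genes it was 3 of 16 (Rab27a higher, Rab18 and Rab2a lower), against 32.5%. With 2000 to 4000 genes, on 6 plate sets, it was 1 of 12 (Rab4b), against 31.6%. On rescaled TPM it was 7 of 37 (the 5 of no floor, with Rab33b and Rab4b higher), against 22.3%. A floor of 1 TPM gave 5 of 37 against 17.3%, and 7 of 51 against 15% on rescaled TPM. Without plate set 1 or 2 it was 1 of 11 (Rab4b), against 33.3% and 32.2%. It stayed 0 without any other plate set. For the labels it became 1 of 16 with at least 2000 genes (Rab9), against 4.26% of all genes tested. With 2000 to 4000 genes, on 5 plates, it was 2 of 12 (Rab14 and Rab4a), against 7.38%. Without plate set 6 it was 2 of 15 (Rab18 and Rab2a), against 23.2%, and it was 0 without any other plate. For genotype in tuft cells it became 1 of 53 with no floor (Rab40c), against 2.39% of all genes tested. A floor of 1 TPM gave 1 of 34 (Rab40c), against 4.64%. With 2000 to 4000 genes, on 6 plate sets, it was 2 of 11 (Rab14 and Rab5c), against 6.69%. On rescaled TPM it was 2 of 36 (Rab29 and Rab7), against 5.82%, and with the floor of 1 TPM 2 of 49 (the same genes), against 5.19%. Without plate set 2 it was 2 of 11 (Rab14 and Rab4a), against 7.87%. Without set 6 it was 2 of 12 (Rab14 and Rab7), against 16.5%, and without set 7 it was 1 of 10 (Rab5c), against 6.51%. For genotype in other cells it became 2 of 54 with no floor (Rab15 and Rab31), against 2.61% of all genes tested. A floor of 1 TPM gave 2 of 38 (the same genes), against 4.74%. On rescaled TPM it was 1 of 37 (Rab15), against 6.34%. With the floor of 1 TPM on rescaled TPM it was 3 of 47 (Rab15, Rab31 and Rab37), against 5.25%. Without plate set 2 it was 1 of 10 (Rab14), against 9.98%. The other alternatives left 0, and the cause of these changes was not tested beyond the number of genes a floor lets in. The difference of Rab29 between genotypes in tuft cells turned from -1.38 to 0.28 with 2000 to 4000 genes, a setting with 6 plate sets. Rab27a kept a positive tuft minus other difference under all 21 alternatives (0.71 to 3.42), Rab27b likewise (0.42 to 1.77), and Rab17 (-2.23 to -0.57) and Rab18 (-1.43 to -0.43) a negative one. Rescaling moved the median of all tested genes by 0.53 in the label comparison and by at most 0.08 in the other 3. Depth per cell is unknown, so a Rab gene at 0 TPM in a cell may be present below detection. No paired analysis was possible because, for genotype, no plate set holds both genotypes and well numbers do not pair cells; the tuft minus other and label differences are already taken within plate sets.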
